A study of Mus musculus with 24 samples.

Results

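The genes described here are 36 symbols of glycolysis and of the response to low oxygen, listed by symbol, with no measured value in the rule. They label 37 entries of the 53465 in the deposited expression table, since Aldoa stands there for 2 gene models. By role these were 18 entries of glycolytic enzymes, 3 carriers of glucose or lactate, 4 kinases that set the pace of glycolysis or of pyruvate oxidation, 2 mitophagy receptors, 2 oxygen sensors, 6 other targets of hypoxia and 2 glycogen enzymes. Levels came from poly(A)+ RNA of mouse embryonic stem cells in 24 libraries, 3 for each of 8 groups. The groups were wild-type (WT) cells and cells with a knockout (KO) of Atf3, a stress-induced transcription factor, each sampled before differentiation (day 0) and on its days 3, 6 and 9. Per the labels' protocols the stem cells of both genotypes were kept in high-glucose medium with serum, pyruvate, LIF, the GSK3 inhibitor CHIR99021 and the MEK inhibitor PD0325901. The sources used here give neither the differentiation medium and oxygen level nor the edited stretch of Atf3 and the number of KO clones.

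Glycolysis splits glucose into pyruvate, and lactate dehydrogenase can turn pyruvate into lactate, so that ATP is made without oxygen. Naive mouse embryonic stem cells combine glycolysis with respiration, and isozyme choice is known to shift as they differentiate. When oxygen is scarce, the prolyl hydroxylases Egln1 and Egln3 stop marking the alpha subunits of hypoxia-inducible factor (HIF) for destruction, and HIF then binds short DNA elements with the core ACGTG or GCGTG near genes of glucose uptake, glycolysis, angiogenesis and mitophagy.

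Expression was given as FPKM, fragments per kilobase of exon with library depth divided out, already scaled between libraries by size factors. Of 53465 genes, 15159 reached 1 FPKM in at least 3 libraries and were tested. Of the 37 entries, 36 passed, and only Car9, a membrane carbonic anhydrase, stayed below that level, at 0.0801 to 0.502 FPKM over the 24 libraries. Fold changes are differences of mean log2(FPKM + 1), which understates changes of genes near or below 1 FPKM, tested with limma and called at a Benjamini-Hochberg adjusted p under 0.05 over all 15159 genes. The labels do not say that the 3 libraries of a group were separate cultures, so p-values measure the spread between libraries, which may be technical. The batch entry of the labels repeats the group name, so batch and group cannot be told apart. In bulk RNA, fewer cells of a type and less RNA per cell cannot be told apart either.

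The libraries held 7855614 to 25274389 recovered reads, of which 4.42% to 45.6% came from 3 genes of the ribosomal RNA type. Atf3 itself was at 1.15 to 24 FPKM in WT and at 0.134 to 0.714 FPKM in 11 of the 12 KO libraries. In the twelfth, KO day 6 replicate 3, it was at 4.17 FPKM. That library also had a lower sum of 9 erythroid markers (176 FPKM, against 2446 and 2793 in the other KO day 6 libraries). WT day 6 replicate 3 had the highest share of ribosomal RNA type reads and 4272088 reads outside them, the fewest of any library. The summed FPKM of 10 naive pluripotency markers was 3443 to 3753 on day 0 in both genotypes, 746 to 1049.6 on day 3 and 69.5 to 340.2 on days 6 and 9. For 1 library of KO day 0 the group is known and the sample number is not, and it is called unnumbered here.

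Promoters are shown first for the 6 members whose levels separated replicate 1 of day 3 from the other day 3 libraries by the largest ratio in both genotypes, among members with a RefSeq promoter entry. Each line gives the 250 bases before the start of transcription, 5′ to 3′ on the gene's strand, from RefSeq on GRCm38.p6. Capitals mark the HIF core letters ACGTG or GCGTG on either strand, so that their complements read CACGT and CACGC. Adm is adrenomedullin, a vasodilator peptide, at chr7:110627407-110627656 on the plus strand. The others lie on the minus strand: Egln3 at chr12:54203875-54204124, Ankrd37, an ankyrin repeat protein, at chr8:45999851-46000100, Pfkfb3 at chr2:11553930-11554179, Egln1 at chr8:124949255-124949504 and Bnip3 at chr7:138909507-138909756. Pfkfb3 has 2 such windows, of which the first is shown.
Adm: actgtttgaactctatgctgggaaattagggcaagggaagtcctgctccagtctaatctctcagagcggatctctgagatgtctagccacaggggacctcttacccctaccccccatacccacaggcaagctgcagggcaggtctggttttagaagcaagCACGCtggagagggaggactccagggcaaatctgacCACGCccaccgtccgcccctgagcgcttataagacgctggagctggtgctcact
Egln3: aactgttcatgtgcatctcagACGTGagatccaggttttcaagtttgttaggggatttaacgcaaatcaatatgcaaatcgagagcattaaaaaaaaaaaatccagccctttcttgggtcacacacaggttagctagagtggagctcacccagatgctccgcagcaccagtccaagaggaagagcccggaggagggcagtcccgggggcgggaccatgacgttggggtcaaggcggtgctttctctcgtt
Ankrd37: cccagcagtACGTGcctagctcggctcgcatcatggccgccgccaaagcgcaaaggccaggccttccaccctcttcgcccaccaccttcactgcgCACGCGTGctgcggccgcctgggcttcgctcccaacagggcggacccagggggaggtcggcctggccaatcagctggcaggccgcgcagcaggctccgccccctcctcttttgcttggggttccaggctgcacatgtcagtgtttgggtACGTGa
Pfkfb3: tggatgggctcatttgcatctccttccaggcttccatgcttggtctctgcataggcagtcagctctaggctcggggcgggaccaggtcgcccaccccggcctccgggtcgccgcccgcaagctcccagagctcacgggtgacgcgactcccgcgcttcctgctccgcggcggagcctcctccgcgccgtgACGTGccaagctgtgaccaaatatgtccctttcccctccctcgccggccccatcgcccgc
Egln1: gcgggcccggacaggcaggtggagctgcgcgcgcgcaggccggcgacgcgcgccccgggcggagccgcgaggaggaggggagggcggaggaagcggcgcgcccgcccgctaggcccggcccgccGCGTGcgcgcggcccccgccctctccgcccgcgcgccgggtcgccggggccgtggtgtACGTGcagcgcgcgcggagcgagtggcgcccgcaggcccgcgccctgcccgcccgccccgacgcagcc
Bnip3: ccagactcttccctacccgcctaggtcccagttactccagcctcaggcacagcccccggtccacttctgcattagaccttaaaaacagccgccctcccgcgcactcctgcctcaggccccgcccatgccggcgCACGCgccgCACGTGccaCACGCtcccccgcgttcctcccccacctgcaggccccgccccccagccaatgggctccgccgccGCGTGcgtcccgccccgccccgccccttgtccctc

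The Adm window held its core letters from 90 and 54 bases before the start, the Pfkfb3 window from 60 and the Egln3 window from 229 bases before it. In the Bnip3 window they began 117, 108, 107, 99 and 35 bases before the start, with those at 108 and 107 overlapping in the palindrome CACGTG. A start 6 bases upstream gave the nearest one in Ankrd37, and those of Egln1 began 126 and 68 bases upstream. RefSeq windows were found for 33 members, 46 windows in all, with none for Bnip3l, Ndrg1 and Slc2a3. Some windows of the same gene overlap, as those of Eno1 and Aldoa do, so windows are not independent counts. The members were also listed as genes of glycolysis and the hypoxia response. Of the 46, 36 held the core letters on either strand (78.3%), against 38.6% of all 32851 windows of the same length. At least 2 separate matches were present in 20 member windows (43.5%), against 13.4% of all. Both sequences hold a CG pair, so windows were also compared by their number of CG pairs. With 15 or more, 19 of 20 member windows held the letters (95%), against 67.9% of all such windows. With 6 to 14, the shares were 72.2% of 18 and 48.8%, and with 0 to 5 they were 50% of 8 and 17.8%. A match is a stretch of letters and was not tested as a binding site.

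The summed level of the glycolytic enzymes had its highest mean on day 0 in both genotypes, and more enzymes were called lower than higher on days 6 and 9. Their summed level was 5469, 4517 and 4166 FPKM in the WT day 0 libraries and 2606, 2072 and 2627 FPKM on day 6, with no overlap. In KO the sums were 4368, 5236 and 4681 FPKM on day 0 and 2712, 2432 and 2498 FPKM on day 6. The day 3 sums (mean 4021 ± 713 in WT and 3733 ± 658 in KO, SD, n = 3) overlapped those of day 0, and the day 9 sums were 2614 ± 402 and 3068 ± 523 FPKM. From day 0 to day 6, 12 of 18 enzyme entries fell and 2 rose in WT, and 13 fell and 1 rose in KO, with medians of -0.87 and -0.85. From day 0 to day 9, 12 fell and 1 rose in WT and 8 fell and 1 rose in KO, with medians of -0.81 and -0.59, where all genes tested had medians of -0.01 and -0.02. Of all genes, 25.2% fell and 22.5% rose to day 6 in WT and 22.3% and 21.4% in KO, and to day 9 the shares were 23.8% and 22.2% in WT and 22.7% and 22.4% in KO.

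These counts differed between scales, most of all on TPM. With levels rescaled to TPM, which gives each library the same sum of length-corrected levels and spreads the change in ribosomal RNA type reads over all genes, the median of all genes rose by 0.74 from day 0 to day 9 in WT and by 0.68 in KO. On that scale 2 enzymes were called lower and 3 higher in each genotype, and the WT declines of Gapdh, Gpi1, Ldha, Aldoa and Aldoc turned positive, as did that of Gapdh in KO. Relative to the median of all genes none of the called members turned sign on any scale tried, and the enzyme medians on TPM were -0.62 in WT and -0.41 in KO. For day 6 against day 0, TPM left 5 enzymes called lower in WT and 4 in KO. With equal sums outside the ribosomal RNA type genes, 10 enzymes were lower and 2 higher by day 9 in WT, and 8 and 2 in KO. By day 6 the equal sums gave 14 lower and 2 higher in WT, and 14 and 0 in KO.

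**Figure D1:**
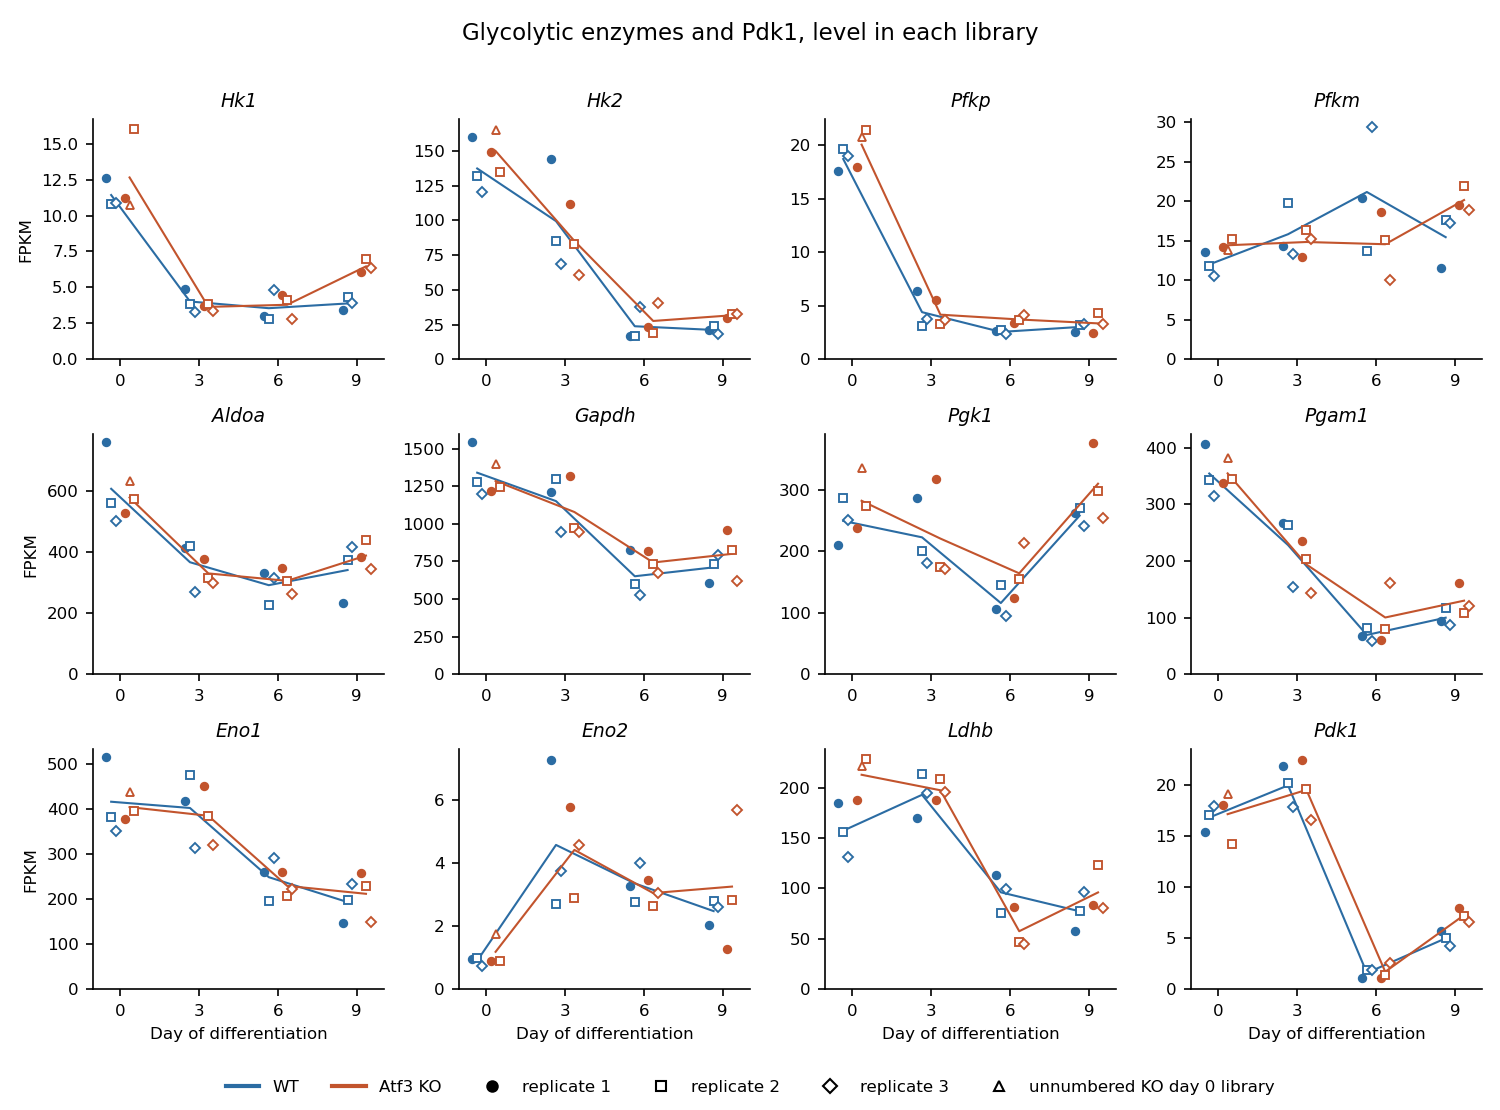
FPKM (linear axis from 0 in each panel) of 11 glycolytic enzymes and of Pdk1 by day of differentiation, 1 point per library, WT and Atf3 KO in different colours and replicate numbers as symbols, with lines at group means. Hk2, Pfkp and Pgam1 lie high on day 0 and low on days 6 and 9, and Pdk1 is near 1 to 3 FPKM in all 6 day 6 libraries.

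Hexokinases trap glucose inside the cell as glucose 6-phosphate. Hk2 (chr6:82725025-82774454, minus strand) is the hypoxia-inducible form. In WT it was at 160.2, 132 and 120.5 FPKM on day 0 and 144, 85.4 and 68.8 on day 3. It was at 16.8, 17.0 and 37.5 FPKM on day 6 and 20.8, 24.1 and 18.3 on day 9. In KO it was at 149.7, 166 and 135 FPKM on day 0 (the unnumbered library second), 112, 83.3 and 60.8 on day 3, 23.0, 19.2 and 40.5 on day 6 and 29.9, 32.3 and 32.8 on day 9. Every library of days 6 and 9 lay below every library of days 0 and 3. On the log2 scale Hk2 fell by 2.57 ± 0.31 (SE), adjusted p = 1.09e-06 (limma), from day 0 to day 6 in WT and by 2.47 in KO, with an adjusted p of 1.78e-06. Its partner Hk1 (chr10:62268855-62379908, minus strand), the broadly expressed form, moved earlier. Hk1 was at 12.6, 10.8 and 10.9 FPKM on day 0 and 4.92, 3.87 and 3.27 on day 3 in WT, and at 11.2, 10.7 and 16.0 and 3.68, 3.85 and 3.39 FPKM in KO. It fell by 1.32 in WT (adjusted p = 1.72e-05) and by 1.54 in KO (adjusted p = 2.59e-06), without overlap of the days. Hk1 made up 4.05% ± 0.665 of the summed hexokinase 1 and 2 level in WT on day 3 and 15.6% ± 1.88 on day 9 (SD, n = 3), and 4.30% ± 1.05 and 16.9% ± 0.774 in KO.

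Phosphofructokinase makes fructose 1,6-bisphosphate, the committed step, and is built from the liver (Pfkl), muscle (Pfkm) and platelet (Pfkp) forms. The platelet form Pfkp (chr13:6579768-6648777, minus strand) was at 17.6, 19.6 and 19.0 FPKM in WT on day 0 and 6.36, 3.11 and 3.72 on day 3. In KO the values were 17.9, 20.7 and 21.5 FPKM on day 0 and 5.51, 3.31 and 3.66 on day 3. No day 3 library reached any of day 0, and Pfkp stayed between 2.31 and 4.33 FPKM on days 6 and 9 in both genotypes. Pfkp fell by 1.91 ± 0.20 (SE), adjusted p = 3.56e-07, in WT to day 3, and in KO the change was -2.05 ± 0.20 (SE), adjusted p = 1.39e-07. Against day 0 it was lower by 2.30 on day 9 in WT and by 2.29 in KO (adjusted p = 9.88e-09 and 9.37e-09).

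As a share of the 3 forms, Pfkp went from 27.2% ± 4.0 on day 0 to 7.78% ± 2.89 on day 3 and 7.02% ± 1.61 on day 9 in WT, and from 27.1% ± 0.507 to 8.56% ± 2.43 and 5.86% ± 1.01 in KO (SD, n = 3). Pfkm went the other way, from 17.2% ± 0.862 to 27.6% ± 3.41 and 35.1% ± 4.18 in WT and from 19.6% ± 1.49 to 30.5% ± 4.38 and 35.9% ± 3.35 in KO. These shares of FPKM do not depend on how libraries are scaled, and for both forms the day 0 and day 9 values did not overlap in either genotype. By FPKM, Pfkl stayed the largest form at 53.3% to 64.6% in the 8 group means. Shares between forms also rest on the exon lengths that FPKM divides by. These were 6675, 3340 and 13401 bases for Pfkl, Pfkm and Pfkp. As a level, Pfkm was called higher only from day 0 to day 6 in WT (0.71 ± 0.24 SE, adjusted p = 0.0186). That call was lost without WT day 6 replicate 3 (0.46) or WT day 0 replicate 3 (0.63), and in KO the difference was -0.03 ± 0.24 (SE), adjusted p = 0.940.

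**Figure D2:**
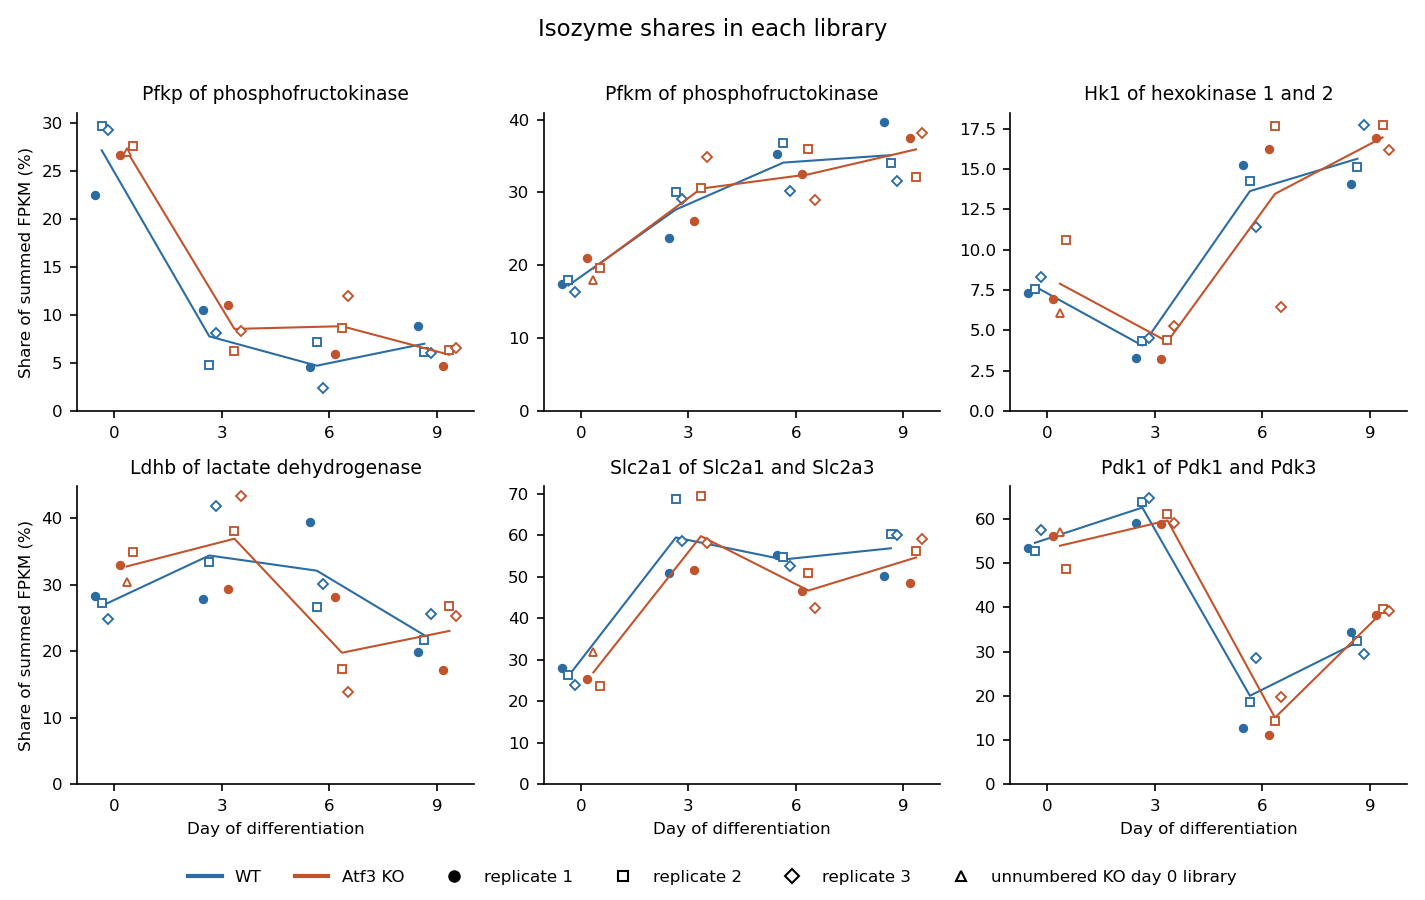
Share of summed FPKM (%, y axis) held by 1 form of phosphofructokinase, hexokinase, lactate dehydrogenase, glucose carrier or pyruvate dehydrogenase kinase in each library, by day of differentiation, with WT and KO in different colours and lines at group means. The Pfkp share drops between day 0 and day 3 from about 27.2% to 7.78% in WT, and the Slc2a1 share rises from 26.0% to 59.5%.

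The steps that follow showed 1 pattern of large, shared declines and several smaller ones. Pgam1 (chr19:41911923-41918660, plus strand), phosphoglycerate mutase, was at 407, 343 and 314 FPKM on day 0 and 67.7, 80.9 and 59.4 on day 6 in WT, and at 337, 383 and 345 and 60.2, 79.4 and 161 in KO. All day 6 libraries were below all of day 0, with KO day 6 replicate 3 the highest of them. Pgam1 fell by 2.34 ± 0.29 (SE), adjusted p = 1.59e-06, in WT, and by 1.94 in KO (adjusted p = 1.68e-05). Gapdh, which makes the NADH of the pathway, was at 1546, 1277 and 1199 FPKM on day 0 and 825, 599 and 530.1 on day 6 in WT, a change of -1.06 ± 0.22 (SE), adjusted p = 4.50e-04. Aldoa, the main aldolase, was called lower by day 3 in WT (-0.73 ± 0.24 SE, adjusted p = 0.0267), a call lost without WT day 0 replicate 1 (-0.56) or WT day 3 replicate 3 (-0.52). It was clear of it by day 6, with 760.0, 563 and 501 FPKM on day 0 and 332, 228 and 315 on day 6, a change of -1.05 ± 0.24 (SE), adjusted p = 0.00113. Gapdh, Pgk1, Pgam1, Ldha and other enzymes have processed pseudogene copies in the mouse genome, so reads may have been shared with them.

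Pgk1, which yields the first ATP of the pathway, fell and came back. It was at 211, 287 and 252, then 107, 146 and 95.2 and then 263, 270.3 and 242 FPKM on days 0, 6 and 9 in WT, and at 238, 336 and 274, 123, 156 and 214 and 377, 299 and 255 FPKM in KO. In WT it fell by 1.11 to day 6 (adjusted p = 0.00158) and rose by 1.17 from day 6 to day 9 (adjusted p = 0.00550), the 1 enzyme called higher over that interval in WT. In KO the step from day 6 to day 9 was 0.93 ± 0.26 (SE), adjusted p = 0.0283, and this call was lost without KO day 6 replicate 1 (0.74) or replicate 2 (0.91), or without KO day 9 replicate 1 (0.78) or replicate 2 (0.95).

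Eno2, the neuronal enolase and a known HIF target, was the enzyme that rose to day 3. It was at 0.959, 0.999 and 0.746 FPKM on day 0 and 7.29, 2.70 and 3.74 on day 3 in WT, and at 0.894, 1.75 and 0.907 and 5.78, 2.91 and 4.57 FPKM in KO. Every day 3 library exceeded every day 0 library, and replicate 1 was the highest on day 3 in both genotypes. Eno2 rose by 1.47 ± 0.31 (SE), adjusted p = 0.00130, in WT, and by 1.3 in KO (adjusted p = 0.00361). On TPM the KO call was lost (1.52, adjusted p = 0.0557). Eno2 remained a minor form, at 0.220% ± 0.0382 of summed enolase 1 and 2 in WT on day 0 and 1.15% ± 0.578 on day 3, beside Eno1 at 514, 381 and 352 FPKM on day 0 and 148, 197 and 234 on day 9 in WT.

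The remaining enzyme entries were Gpi1 (glucose 6-phosphate isomerase), Pfkl, Aldoc (the brain aldolase), Tpi1 (triose phosphate isomerase), Pkm (pyruvate kinase), Ldha and Ldhb (lactate dehydrogenase subunits) and the other Aldoa gene model. In WT from day 0 to day 9, Pkm fell by 1.09 (adjusted p = 8.08e-04), Eno1 fell by 1.11 (6.30e-04), Ldhb fell by 1.03 (0.00126) and Ldha fell by 0.69 (0.0219). The Ldha call was lost without WT day 0 replicate 1 (0.0744) or WT day 9 replicate 1 (0.0752), and on TPM its difference was 0.31. Tpi1 was at 314, 247 and 229 FPKM on day 0 and 199, 283 and 304 on day 9 in WT, ranges that overlapped, and its difference was -0.02 ± 0.21 (SE), adjusted p = 0.956, while on TPM it was called higher (0.99, adjusted p = 0.0460). Pfkl was at 14.9, 30.8 and 34.1 FPKM on day 9 in WT, a difference of -0.60 ± 0.33 (SE), adjusted p = 0.153. The Aldoa model ENSMUSG00000114515 (chr7:126800790-126809108, minus strand), next to the main gene, was at 0.590 to 4.31 FPKM over all libraries.

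Glucose enters through Slc2a1 and Slc2a3 (GLUT1 and GLUT3), and Slc16a3 (MCT4) exports lactate. Slc2a1 (chr4:119108711-119137983, plus strand) was at 117, 109 and 85.8 FPKM on day 0, 401, 279 and 188 on day 3, 273, 288 and 181 on day 6 and 154, 160.1 and 138 on day 9 in WT. In KO it was at 90.7, 164 and 102, 340.0, 281 and 176, 251, 352 and 322 and 122, 112 and 119 FPKM. All day 3 and day 6 libraries of both genotypes were above all of day 0. Slc2a1 rose by 1.41 ± 0.28 (SE), adjusted p = 7.24e-04, to day 3 in WT and by 1.15 in KO (adjusted p = 0.00409). It was still 1.22 above day 0 on day 6 in WT and 1.40 in KO (adjusted p = 0.00134 and 4.01e-04). On TPM the calls of day 3 in both genotypes and of day 6 in WT were lost, at differences of 1.47, 1.32 and 1.13.

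Slc2a3, the high-affinity carrier, was lower on day 9 than on day 0. It was at 304, 307 and 272 FPKM on day 0 and 152, 106 and 91.3 on day 9 in WT, and at 268, 350.1 and 329 and 130.1, 87.1 and 81.7 FPKM in KO, with no overlap. Slc2a3 fell by 1.67 ± 0.38 (SE), adjusted p = 0.00100, in KO, and by 1.36 in WT (adjusted p = 0.00524). On TPM both calls were lost. Between these days its 6 day 3 values were split, with 386, 127 and 132 in WT and 319, 123 and 126 FPKM in KO, replicate 1 being high in each. Slc2a1 made up 26.0% of the summed pair on day 0 in WT and 59.5%, 54.2% and 56.9% on the later days, and 26.9%, 59.8%, 46.7% and 54.6% in KO. Slc16a3 was at 26.0, 21.0 and 20.3 FPKM on day 0 and 78.1, 65.9 and 35.8 on day 3 in WT, where it rose by 1.32 (adjusted p = 0.00341). In KO it was at 15.4, 27.9 and 25.8 and 62.0, 51.8 and 37.6 FPKM and rose by 1.11 (adjusted p = 0.0109), a call lost without KO day 3 replicate 1 (adjusted p = 0.0568) or KO day 0 replicate 1 (0.0779).

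Pdk1 (chr2:71873224-71903858, plus strand), a kinase that shuts pyruvate dehydrogenase and so limits pyruvate oxidation, had the deepest change of all members. Its level was 15.4, 17.1 and 18 FPKM on day 0, 21.9, 20.2 and 17.9 on day 3, 1.07, 1.83 and 1.86 on day 6 and 5.67, 5.05 and 4.25 on day 9 in WT. In KO it was 18.1, 19.1 and 14.3, 22.5, 19.6 and 16.6, 1.09, 1.43 and 2.59 and 8.01, 7.18 and 6.6 FPKM. The 6 day 6 libraries were the lowest of all, and the day 9 libraries lay between them and days 0 and 3. From day 3 to day 6 Pdk1 fell by 3.03 ± 0.19 (SE), adjusted p = 6.29e-10, in WT and by 2.95 in KO (adjusted p = 5.84e-10). From day 6 to day 9 it rose by 1.22 in WT and by 1.65 in KO (adjusted p = 2.24e-04 and 6.05e-06). Its paralog Pdk3 was at 13.4, 15.3 and 13.3 FPKM on day 0 and 7.31, 7.97 and 4.66 on day 6 in WT, so that the Pdk1 share of the pair went from 54.6% on day 0 to between 12.8% and 28.5% in the day 6 libraries and to 32.1% on day 9 (54.0%, 15.0% and 39.0% in KO).

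Pfkfb3 and Pfkfb4 make and remove fructose 2,6-bisphosphate, the activator of phosphofructokinase. Pfkfb3 was uneven within groups, with 26.8, 3.76 and 4.11 FPKM on day 3 in WT, 21.4, 3.64 and 3.37 in KO and 1.87, 2.88 and 26.7 on day 6 in KO, and it was not called in any comparison. Pfkfb4 was low, at 1.3, 1.11 and 1.36 FPKM on day 6 in WT and 2.06, 2.88 and 2.13 in KO. In KO it rose by 0.88 from day 3 to day 6 (adjusted p = 3.73e-05) and was 0.49 lower on day 9 (adjusted p = 0.0249). The second call was lost without KO day 6 replicate 2 (-0.38) or KO day 9 replicate 2 (-0.45) or 3 (-0.41).

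**Figure D3:**
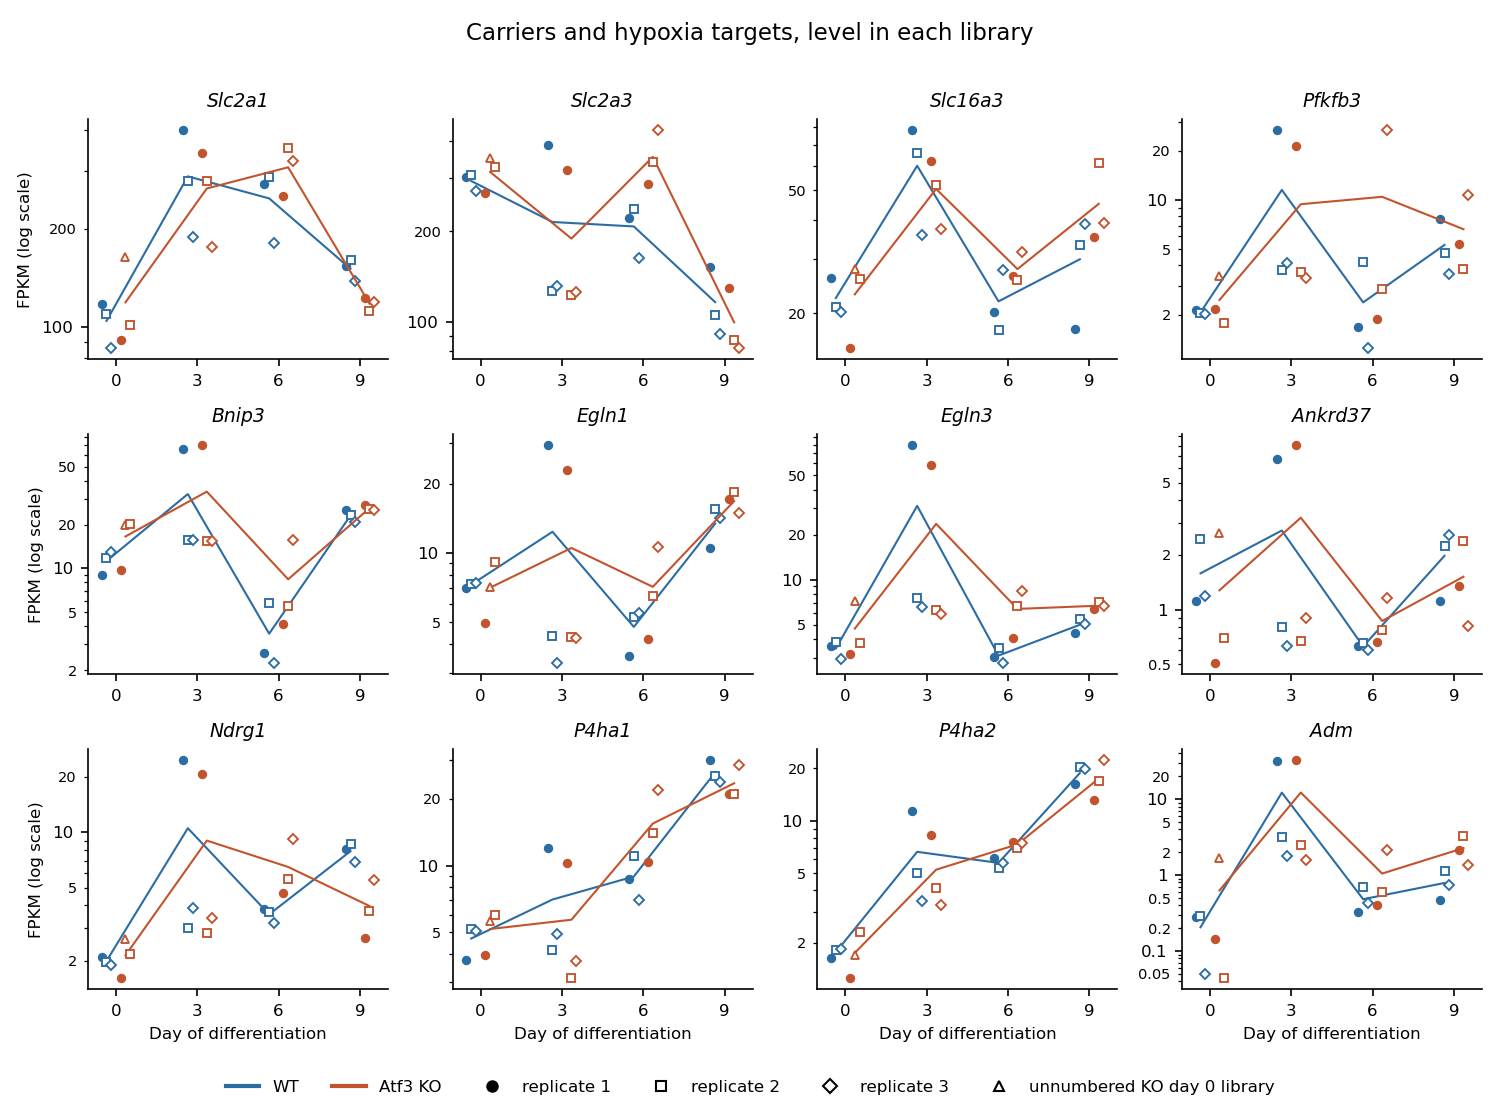
FPKM (log axis) of 12 carriers and hypoxia targets by day of differentiation, 1 point per library, with WT and Atf3 KO in different colours, replicate numbers as symbols and lines at group means. On day 3 the replicate 1 points of both genotypes stand far above replicates 2 and 3 for Egln3, Adm, Ankrd37, Ndrg1, Pfkfb3 and Egln1, while P4ha1 and P4ha2 are high in all 6 day 9 libraries.

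On day 3 the hypoxia targets tested among the members split the libraries by replicate number and not by genotype. Egln3, a hydroxylase that is itself induced by HIF, was at 79.2, 7.55 and 6.58 FPKM in WT replicates 1, 2 and 3 and at 58.6, 6.30 and 5.91 in KO. Adm was at 31.6, 3.16 and 1.79 FPKM in WT and 32.6, 2.46 and 1.58 in KO, and Ndrg1, a stress-response gene of the NDRG family, at 24.7, 3.02 and 3.86 and 20.8, 2.83 and 3.41. In each case both replicate 1 libraries were high and the other 4 low. The ratio of replicate 1 to the mean of replicates 2 and 3 was 12.8 in WT and 16.1 in KO for Adm, and 11.2 and 9.60 for Egln3. It was 9.45 and 10.3 for Ankrd37, and 7.18 and 6.68 for Ndrg1. For Egln1, the main oxygen sensor, it was 7.67 and 5.38, and for Pfkfb3 6.81 and 6.10. Bnip3, a mitophagy receptor, had ratios of 4.22 and 4.56 and its relative Bnip3l 1.75 and 1.77.

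Among the 36 members tested, replicate 1 was the highest day 3 library in both genotypes for 26 (72.2%), against 18.8% of all genes tested. It exceeded the other libraries by more than 1 on the log2 scale in both genotypes for 9 members (25%), against 0.726% of all genes. These 9 were Slc2a3, Pfkfb3, Bnip3, Egln1, Egln3, Ankrd37, Ndrg1, P4ha1 and Adm. All 18 tested entries outside the enzymes had replicate 1 highest in both genotypes, while 8 of the 18 enzymes did. Car9, below the tested level, went the other way, with ratios of 0.421 in WT and 0.420 in KO. None of the enzymes passed the difference of 1 in both genotypes, though Aldoc did in WT (1.13), and Ldhb and Pfkm were lower in replicate 1, with ratios of 0.829 and 0.870 in WT. In a list of 24 other HIF targets, 20 had replicate 1 highest in both and 9 passed the difference of 1. Of these, Ddit4, an inhibitor of mTOR signalling, was at 512, 114 and 90.1 FPKM in WT and 448, 109 and 77.3 in KO. Of 11 HIF subunits and regulators 1 had replicate 1 highest in both, and Hif1a transcript was at 16.6, 10.7 and 21.5 FPKM in WT and 20.4, 15.1 and 23.6 in KO. The replicate 1 libraries had 15.3% and 15.4% of reads from ribosomal RNA type genes, against 25.0% to 35.2% in the other 4, and whether that bears on the difference was not tested.

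**Figure D4:**
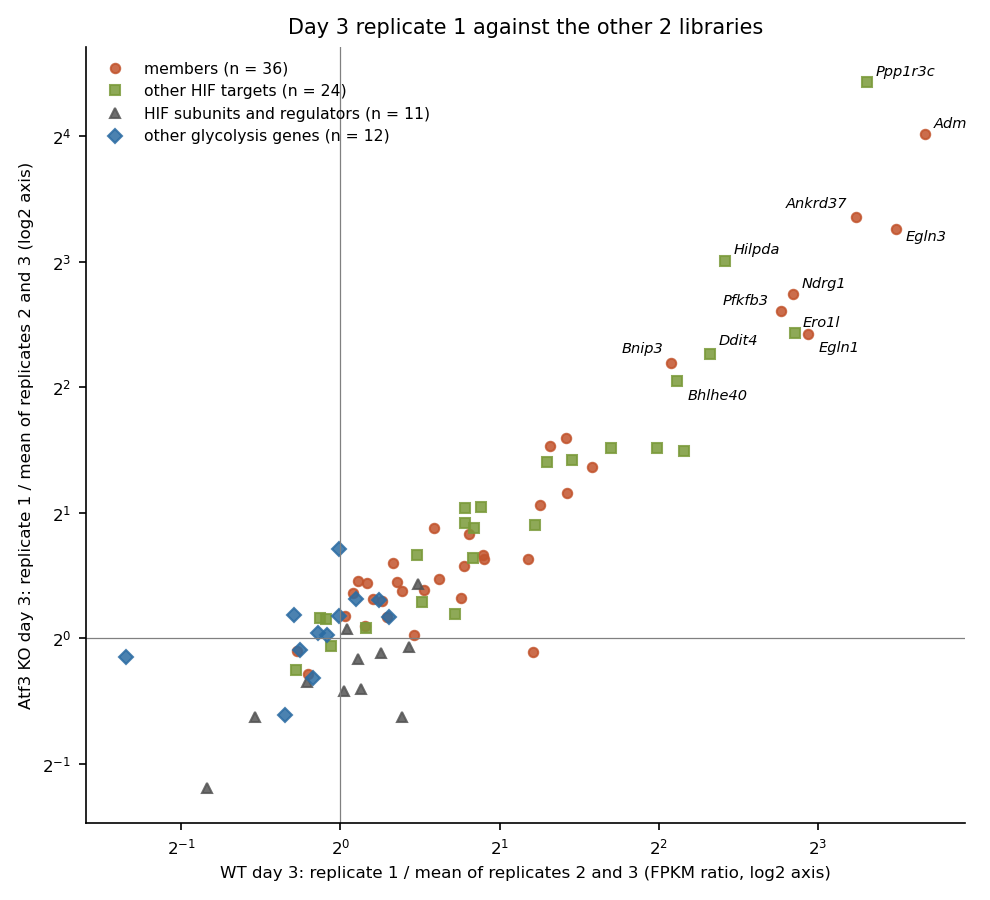
Ratio of FPKM in day 3 replicate 1 to the mean of replicates 2 and 3, in WT (x axis) and in Atf3 KO (y axis), both on log2 axes, 1 point per gene for the members and for lists of other HIF targets, HIF regulators and other glycolysis genes. Hypoxia targets spread along the diagonal, with members up to 12.8 in WT and 16.1 in KO for Adm and the other HIF target Ppp1r3c at 9.91 and 21.5, and the HIF regulators and other glycolysis genes lie between 0.393 and 1.64.

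Replicate 1 carried several calls of day 3. From day 0 to day 3, 7 of 36 members rose and 4 fell in WT, where 11.4% of all genes tested rose and 14.5% fell, with a median of 0.05 over members. In KO 6 rose and 6 fell, where 11.9% of all genes rose and 16.2% fell, with a median of -0.09. On TPM 1 of the 7 rises in WT, that of Eno2, was still called, and none of the 6 in KO, so that the calls below and those of Slc16a3 and Gbe1 were lost there. On TPM 3 members were lower in KO. Without replicate 1 of day 3 the members called higher were 4 in WT and 2 in KO, or 3 in KO without replicate 1 of both day 3 groups. Adm rose by 2.59 in WT and by 2.18 in KO (adjusted p = 0.0176 and 0.0422), and without replicate 1 the adjusted p was 0.147 and 0.312. The Adm call was also lost without WT day 0 replicate 3 (0.0544) and, in KO, without KO day 0 replicate 1 (0.124) or 2 (0.137). Egln3 rose by 1.96 in WT (adjusted p = 0.0461) and the p was 0.348 without WT day 3 replicate 1 and 0.0846 to 0.112 without any 1 of the WT day 0 replicates. P4ha2 rose by 1.33 in WT (adjusted p = 0.00190) and by 1.12 in KO (0.00691), with 0.0593 in KO without replicate 1. The KO members called lower numbered 3 without the unnumbered KO day 0 library, without KO day 3 replicate 3, or with the replicate number as a block.

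From day 3 to day 6 some of the hypoxia targets high in replicate 1 fell, and others rose in KO. From day 3 to day 6, 16 of 36 members fell and 1 rose in WT, where 19.1% of all genes fell and 19.5% rose, with a median of -0.67. In KO 8 fell and 4 rose, where 14.9% of all genes fell and 17.7% rose, with a median of -0.39. The member that rose in WT was Gys1 (0.70, adjusted p = 0.0349), a call lost on TPM, with equal sums and with voom. Bnip3 fell by 2.62 in WT (adjusted p = 9.66e-04), Adm by 2.30 (0.0254) and Egln3 by 2.08 (0.0252). Without WT day 3 replicate 1 the members called lower in WT were 10, and the adjusted p was 0.198 for Adm and 0.209 for Egln3. Both were also lost without WT day 6 replicate 1 (0.0688 and 0.0609) or 3 (0.0612 and 0.0651). Beside Pdk1, Ldhb fell by 1.82 (adjusted p = 7.01e-06) and Hk2 by 1.62 (4.48e-04) in KO, where TPM left 1 enzyme called lower. In KO Bnip3 fell by 1.70 (adjusted p = 0.0216), with 0.162 without KO day 3 replicate 1, 0.109 without KO day 6 replicate 1 and 0.0843 without KO day 6 replicate 2. Among the KO rises were P4ha1 (1.39, adjusted p = 0.00458) and Slc2a3 (1.03, 0.0408), both lost on TPM (0.0711 and 0.191) and with equal sums (0.0574 and 0.238). The Slc2a3 call was also lost without KO day 3 replicate 2 (0.167) or 3 (0.166) or KO day 6 replicate 2 (0.0887) or 3 (0.0968). On TPM the members called lower were 6 in WT and 2 in KO, with the compared groups alone 8 and 4, and with equal sums 13 in KO. The KO count of 8 went to 4 without KO day 3 replicate 1 or KO day 6 replicate 2, and to 5 without KO day 6 replicate 1. The KO count of 4 higher went to 2 without KO day 3 replicate 2 or 3 or KO day 6 replicate 2.

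KO day 6 replicate 3 was high in several hypoxia targets and not in others, with P4ha2 at 7.41 FPKM against 7.58 and 6.97. It had 26.7 FPKM of Pfkfb3 and 15.5 of Bnip3, where the other KO day 6 libraries had 1.87 and 2.88 of the first and 4.16 and 5.52 of the second. Of the 26 members highest in replicate 1 of day 3 in both genotypes, 19 were also highest in this library among the KO day 6 ones (73.1%). Over all genes tested the share was 1737 of 2850 (60.9%), not far below. The Hif1a level of this library was 30.9 FPKM, against 4.95 and 8.41. Its 8 visceral endoderm markers summed to 55.9 FPKM, against 722 and 631, beside the erythroid markers given above, and the part of either in these levels was not tested.

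The members with the largest rise from day 0 to day 9 were the collagen prolyl 4-hydroxylase subunits P4ha1 and P4ha2, which shape collagen in the endoplasmic reticulum. P4ha2 (chr11:54100095-54131665, plus strand) was at 1.63, 1.81 and 1.84 FPKM on day 0 and 16.2, 20.4 and 19.7 on day 9 in WT, and at 1.25, 1.69 and 2.29 and 13.2, 17.0 and 22.3 in KO. P4ha1 was at 3.77, 5.20 and 5.10 and 29.9, 25.4 and 23.7 FPKM in WT and at 3.94, 5.61 and 5.98 and 21.0, 21.0 and 28.5 in KO. The days did not overlap for either gene, and no single library stood apart on day 9. P4ha2 rose by 2.84 ± 0.30 (SE), adjusted p = 1.18e-07, in WT, and by 2.74 in KO (adjusted p = 1.79e-07). P4ha1 rose by 2.27 ± 0.35 (SE), adjusted p = 2.05e-05, in WT, and by 1.99 in KO (adjusted p = 9.13e-05). Over the same days 6 fibroblast markers summed to 5.30 to 6.38 FPKM on day 0 and 234 to 278 on day 9 in WT, and to 2.79 to 3.82 and 206 to 530.3 in KO, and their part in the rise was not tested.

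Bnip3l was called higher on day 9 than on day 0, and Bnip3 rose from day 6 to day 9 in WT. Bnip3 (chr7:138890836-138909519, minus strand) was at 2.64, 5.80 and 2.23 FPKM on day 6 and 25.0, 23.4 and 20.9 on day 9 in WT, and rose by 2.48 (adjusted p = 0.00519). In KO it was at 4.16, 5.52 and 15.5 and 27.1, 25.6 and 25.0 FPKM, a difference of 1.71 ± 0.55 (SE), adjusted p = 0.0594, which was called without KO day 6 replicate 3 (2.21, adjusted p = 0.0146). Against day 0 the day 9 difference of Bnip3 was 0.99 ± 0.55 (SE), adjusted p = 0.151 in WT and 0.68 in KO (0.338). Bnip3l was at 9.28, 14.5 and 16.0 FPKM on day 0 and 30.5, 22.8 and 22.2 on day 9 in WT and was called higher (0.89, adjusted p = 0.0195), a call lost without WT day 0 replicate 1 (0.67) or WT day 9 replicate 1 (0.75). Ndrg1 rose by 1.57 in WT from day 0 to day 9 (adjusted p = 0.0271), a call that was lost in 5 of the 6 fits that left out 1 WT library of days 0 and 9, at 1.51 to 1.59. In KO the difference of Bnip3l was 0.87 ± 0.30 (SE), adjusted p = 0.0226, lost without KO day 0 replicate 1 (0.82), KO day 0 replicate 2 (0.85) or KO day 9 replicate 3 (0.82).

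The glycogen enzymes went separate ways on day 3. Gys1, the muscle glycogen synthase, was at 20.8, 15.4 and 16.9 FPKM on day 0 and 8.89, 5.70 and 4.81 on day 3 in WT, and at 14.6, 12.5 and 17.8 and 5.66, 5.14 and 3.91 in KO, without overlap. Gys1 fell by 1.35 ± 0.25 (SE), adjusted p = 3.69e-04, in WT, and by 1.44 in KO (adjusted p = 1.94e-04). Gbe1, the branching enzyme, was at 0.556, 0.630 and 0.685 and 4.23, 1.52 and 1.88 FPKM in WT and at 0.698, 0.689 and 0.425 and 4.55, 1.48 and 1.67 in KO. It was called higher by 1.05 in WT and 1.05 in KO (adjusted p = 0.0184 and 0.0171), and without replicate 1 of day 3 the p was 0.129 in WT and 0.130 in KO. These calls were also lost without WT day 0 replicate 1 (0.0572) and without KO day 0 replicate 2 (0.0661).

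**Figure D5:**
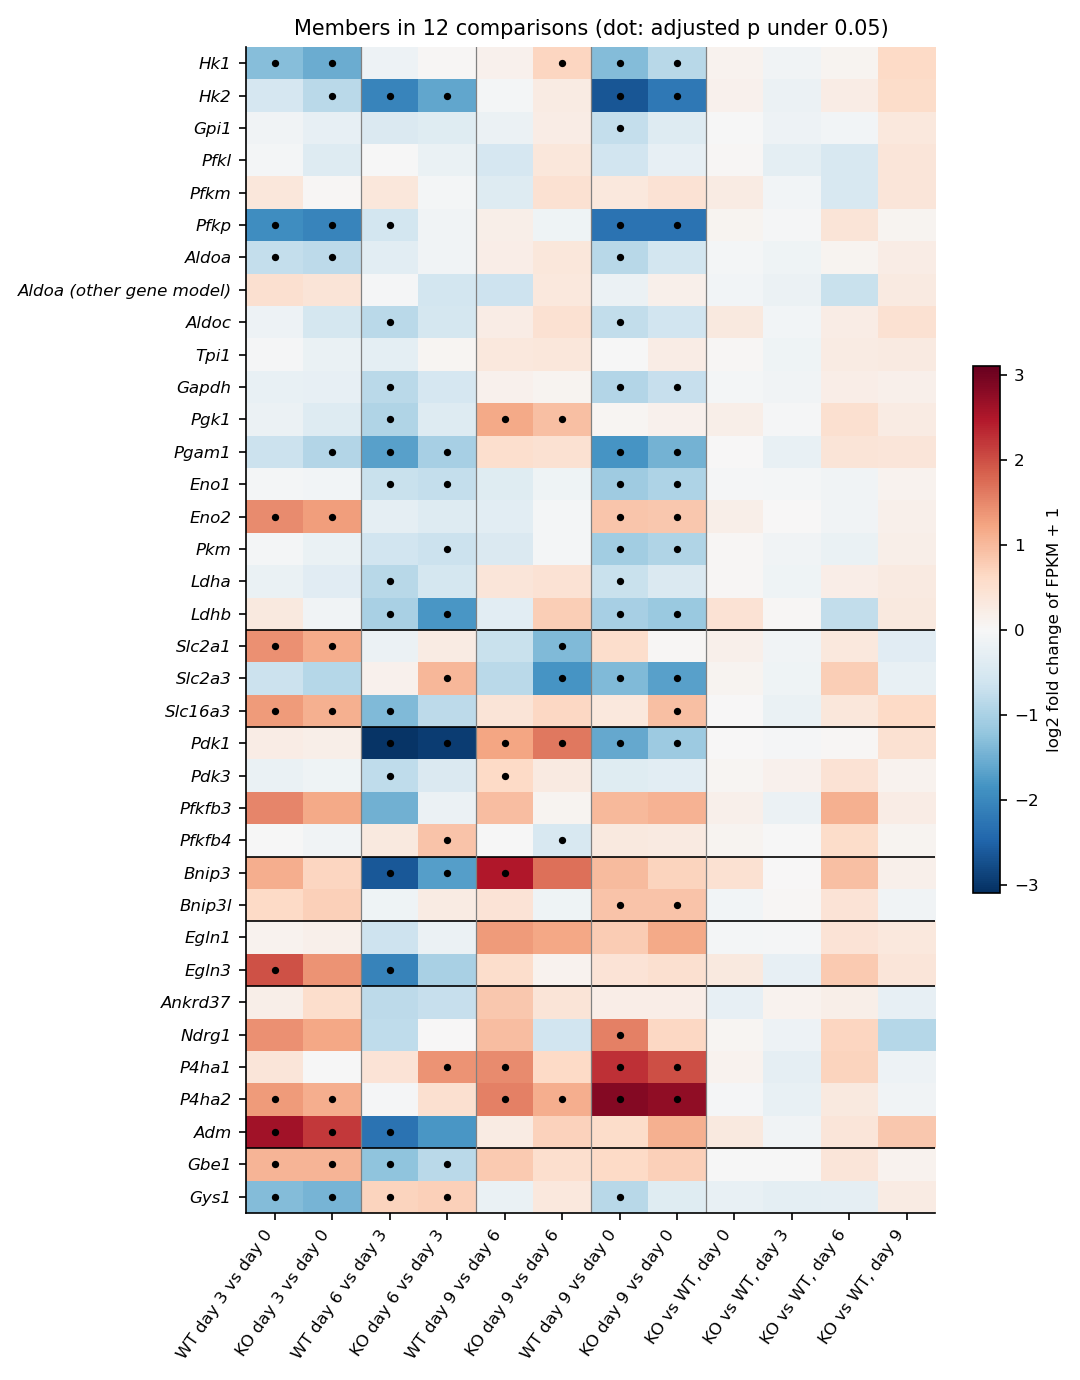
Log2 fold change of FPKM + 1 (colour, -3.1 to 3.1) of the 36 members tested (y axis) in 12 comparisons (x axis), with a dot where the adjusted p is under 0.05. From day 0 to day 9, 12 of 18 glycolytic enzymes are blue with a dot in WT and 8 in KO, and the 4 columns of KO against WT hold no dot.

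Counts over whole intervals put these genes in context. From day 0 to day 6, 16 of 36 members fell and 4 rose in WT, where 25.2% of all genes fell and 22.5% rose, and 16 fell and 6 rose in KO, where 22.3% fell and 21.4% rose. From day 0 to day 9, 15 fell and 5 rose in WT, against 23.8% and 22.2% of all genes, and 10 fell and 5 rose in KO, against 22.7% and 22.4%. The shares that rose were below the background in each of these 4 comparisons, and the shares that fell were above it. By day 9 this balance turned on TPM. With equal sums outside the ribosomal RNA type genes, 13 of the 15 WT falls and all 10 KO falls by day 9 were still called. So were 4 of the 5 rises in each genotype. On TPM 10 rose and 2 fell by day 9 in WT and in KO, and by day 6 0 rose and 6 fell in WT and 5 fell in KO. With the compared groups alone 10 rose in WT and 9 in KO by day 9, and without a filter 3 in WT. The 5 that rose by day 9 became 2 without WT day 0 replicate 1 and 3 without any of WT day 0 replicates 2 and 3 and WT day 9 replicates 1 and 2. In KO the 5 became 2 without KO day 0 replicate 1 and 3 without KO day 0 replicate 2 or KO day 9 replicate 2 or 3.

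From day 6 to day 9, 6 members rose and none fell in WT, where 8.15% of all genes rose and 5.13% fell, and 4 fell without WT day 6 replicate 2. Among the WT rises were P4ha2 (1.55, adjusted p = 0.00147) and P4ha1 (1.47, 0.00873). On TPM 14 rose in WT, and with the compared groups alone 3. In KO 4 rose and 3 fell, where 6.06% rose and 2.45% fell. The KO falls were Slc2a3 (-1.83, adjusted p = 0.00289), Slc2a1 (-1.37, 0.00294) and Pfkfb4 (-0.49, 0.0249), and P4ha2 was among the rises (1.12, 0.0190). With equal sums 9 rose and 1 fell in KO, on TPM none fell, and with the compared groups alone 1 rose. The 4 became 1 without KO day 6 replicate 2 and 2 without any 1 of the KO day 9 replicates.

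No member was called between KO and WT on any day. The background of genes called in either direction was 0.0132% on day 0, 0.0132% on day 3, 0.726% on day 6 and 0.963% on day 9. At an unadjusted p under 0.05 in limma the members numbered 0, 0, 4 and 2 on these days, and voom on recovered reads called 0 on each. The median difference over the 36 members was 0.05 on day 0, -0.11 on day 3, 0.27 on day 6 and 0.24 on day 9, while all genes tested had medians within 0.03 of 0. The change of KO from day 0 also did not differ from that of WT for any member in limma, with backgrounds of 0.0132%, 0.112% and 0.264% of genes on days 3, 6 and 9, unadjusted counts of 0, 3 and 0, and 0 by voom. A p above the threshold does not show that the genotypes were alike.

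On day 6 the closest was Pfkfb4, at the levels given above, with every KO library above every WT library. Its difference was 0.57 ± 0.13 (SE), adjusted p = 0.0529. Ldhb (chr6:142490249-142507957, minus strand), the subunit of lactate dehydrogenase that favours pyruvate, was at 113, 75.7 and 99.8 FPKM on day 6 in WT and 81.3, 46.4 and 44.9 in KO, where 1 KO library lay within the WT range. Its difference was -0.77 ± 0.24 (SE), adjusted p = 0.199, and without KO day 6 replicate 1 it was -1.04 with an adjusted p of 0.0395. Of the summed Ldha and Ldhb level, Ldhb made up 32.1% ± 6.62 in WT and 19.8% ± 7.42 in KO on day 6 (SD, n = 3). Relative to the difference on day 0, that of Ldhb was -1.21 ± 0.34 (SE), adjusted p = 0.394, and it was called with equal sums outside the ribosomal RNA type genes (-1.10, adjusted p = 0.0427).

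All 3 KO values exceeded all 3 WT values on day 6 for 8 members, Pfkp, Slc2a3, Pdk3, Pfkfb4, Egln3, Ankrd37, Ndrg1 and P4ha2 (22.2%), where 4.18% of all genes did. For 1 entry, the other Aldoa gene model, all KO values were below, where 3.73% of all genes were. Egln3 was at 3.04, 3.51 and 2.76 FPKM in WT and 4.06, 6.63 and 8.41 in KO, a difference of 0.80 ± 0.71 (SE), adjusted p = 0.666. Slc2a3 was at 222, 238 and 163 FPKM in WT and 287, 340.3 and 434 in KO, a difference of 0.76 ± 0.38 (SE), adjusted p = 0.509. For both genes KO day 6 replicate 3 was the highest of the 6 libraries. It was also the highest for Pfkp, Pdk3, Ankrd37 and Ndrg1, but not for Pfkfb4 and P4ha2. This is the KO library whose Atf3 level stood apart, as given above, and its part in these differences was not tested. Without overlap, the 9 erythroid markers summed to 27.6 to 106 FPKM in WT and 176 to 2793 in KO on day 6 and the 6 smooth muscle markers to 58.4 to 156 and 197 to 329, and their part in these differences was not tested.

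On day 9 all 18 enzyme entries had a higher mean in KO, with a median difference of 0.28, and none was called. The direction held for all 18 on TPM, with equal sums, with voom and with a pseudocount of 0.1. Hk1 was at 3.40, 4.31 and 3.94 FPKM in WT and 6.08, 6.97 and 6.33 in KO and had the lowest p, with a difference of 0.61 ± 0.19 (SE), adjusted p = 0.219. Pdk1, at the day 9 levels above, differed by 0.47 ± 0.19 (SE), adjusted p = 0.693. Without overlap KO was above WT for 9 members (25%; 6.41% of all genes), Hk1, Hk2, Pfkm, the other Aldoa model, Aldoc, Pdk1, Bnip3, Egln3 and Adm. It was below WT for Slc2a1 and Ndrg1 (5.56%; 4.08% of all genes), with Ndrg1 at 8.10, 8.65 and 6.92 FPKM in WT and 2.67, 3.74 and 5.5 in KO. Cardiac markers, 8 in all, summed to 82.2 to 142 FPKM in WT and 292 to 999 in KO on day 9. The 8 endothelial markers summed to 17.3 to 19.7 FPKM in WT and 35.7 to 44.1 in KO, and the 7 trophoblast markers to 60.4 to 105 and 14.1 to 29.3. These sums did not overlap, and their part in these differences was not tested.

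On days 0 and 3 differences were small. On day 0 KO exceeded WT without overlap for Pfkm and Ldhb, where 3.4% of all genes did, and was below for none, where 4.11% of all genes were. Ldhb was at 185, 156 and 131 FPKM in WT and 188, 221 and 229 in KO, a difference of 0.44 ± 0.24 (SE), adjusted p = 1. The unnumbered KO day 0 library was the highest of its group in Adm, at 1.70 FPKM against 0.144 and 0.0439, and the lowest in Hk1. On day 3 no member was without overlap in either direction, where 1.5% and 2.3% of all genes were. With WT and KO paired by replicate number, which on day 3 deviated together, KO was below WT in all 3 pairs for 12 members (33.3%; 17.0% of all genes), Hk2, Gpi1, Pfkl, Pgam1, Pkm, Slc2a3, Pfkfb3, Egln3, Ndrg1, P4ha1, P4ha2 and Gys1. It was above in all 3 for 1, Pdk3 (2.78%; 12.5% of all genes). With the number as a block within each day none was called on day 3. Without the block Gys1 had the lowest p on day 3, at -0.31 ± 0.25 (SE), adjusted p = 1. Of the 18 enzymes 2 had a higher mean in KO on day 3, a direction that turned on TPM, where 16 did as fitted and 6 relative to the median of all genes.

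Related genes outside the 36 were read from lists chosen by function. Of 12 further tested steps and isozymes of glycolysis, 3 rose and 3 fell from day 0 to day 9 in WT, where 22.2% of all genes rose and 23.8% fell, shares against which the counts of the lists that follow also stand. Tigar, which removes fructose 2,6-bisphosphate, was at 51.9, 46.5 and 47.5 FPKM on day 0 and 7.36, 7.14 and 6.62 on day 9, and fell by 2.63 (adjusted p = 4.02e-11). Slc2a4, the insulin-responsive glucose carrier, rose by 1.28 (adjusted p = 1.09e-05). Of 13 genes of pyruvate oxidation and gluconeogenesis 7 fell and 2 rose, with Pcx, pyruvate carboxylase, at -1.69 and Pdp2, a phosphatase that reactivates pyruvate dehydrogenase, at -1.46 (adjusted p = 1.19e-06 and 9.18e-07). Of 7 pentose phosphate genes 4 fell and 1 rose, with Tkt, transketolase, at -1.35 (adjusted p = 8.03e-04).

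Of 24 other HIF targets tested, 7 rose and 2 fell from day 0 to day 9 in WT, and 7 and 2 in KO, where 22.4% of all genes rose and 22.7% fell. Loxl2, a lysyl oxidase that cross-links collagen, was at 0.851, 1.17 and 1.02 FPKM on day 0 and 26.7, 29.1 and 23.2 on day 9 in WT and rose by 3.76 (adjusted p = 1.90e-10). Plod2, a collagen lysyl hydroxylase, rose by 2.27 (4.56e-04). Of 11 HIF subunits and regulators 2 rose and 1 fell in WT. Arnt, the common beta subunit, was at 11, 12.5 and 11.7 FPKM on day 0 and 5.56, 4.63 and 3.12 on day 9 in WT and fell by 1.25 (adjusted p = 7.88e-06).

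Between genotypes, 4 genes of these lists and of a list of 7 other glycogen genes were called on day 9, where 0.963% of all genes were. The tested genes were 12 of glycolysis, 13 of pyruvate oxidation and gluconeogenesis and 7 of the pentose phosphate pathway. There were also 24 HIF targets and 11 HIF subunits and regulators. Gyg, glycogenin, which primes glycogen, was at 12.4, 13.4 and 14.5 FPKM in WT and 31.6, 40.6 and 22.1 in KO, a difference of 1.13 ± 0.19 (SE), adjusted p = 0.00259. Of the alternatives tried, the call was lost on TPM (0.513) and with the 2 groups fitted alone (0.322). Pygm, muscle glycogen phosphorylase, was at 0.392, 0.512 and 0.314 FPKM in WT and 0.894, 1.69 and 1.42 in KO, a difference of 0.72 ± 0.16 (SE), adjusted p = 0.0318. Epas1, the HIF-2 alpha subunit, was at 14.2, 7.76 and 8.32 FPKM in WT and 4.27, 4.52 and 4.07 in KO, and Hkdc1, a hexokinase relative, at 2.96, 2.63 and 2.68 and 1.23, 1.60 and 1.27. Epas1 differed by -1.02 ± 0.23 (SE), adjusted p = 0.0306, and Hkdc1 by -0.67 ± 0.15 (SE), adjusted p = 0.0281. The calls of Epas1, Hkdc1 and Pygm were each lost on TPM (limma adjusted p = 0.716, 0.208 and 0.0750). A pseudocount of 0.1 also ended them (0.101, 0.751 and 0.0604), as did the compared groups alone and the number as a block within each day. Epas1 was further lost with equal sums (0.0750), Hkdc1 with voom (0.217), and Hkdc1 and Pygm with the replicate block (0.0730 and 0.0668). Without single libraries of day 9 the Epas1 call was lost for KO replicates 1, 2 and 3 and WT replicates 1 and 3 (0.0522 to 0.205). That of Hkdc1 was lost for KO replicates 1 and 3 and each WT replicate (0.0901 to 0.137), and that of Pygm for KO replicates 2 and 3 and each WT replicate (0.0735 to 0.176).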

How the data were processed

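The authors deposited 1 table of FPKM for 24 libraries of poly(A)+ RNA, and no source used here says how its values were made. The submitters' processing notes name build mm10, the read tools FastQC 0.11.9 and Trimmomatic 0.39, the aligner HISAT2 2.2.1, the counter featureCounts 2.0.1, and DESeq2 1.30.1 under R 4.1.0. With GENCODE vM21 exon lengths, 95.5% to 96.9% of values of up to 50 reads lay within 0.05 of a whole read. The denominators of the deposited FPKM tracked median-of-ratios size factors, with gaps of at most 0.0481%. The sum of these reads was taken as the depth. Libraries of the same group differed by a chi-square of 7.84 to 303 per degree of freedom, so none was a copy. Of the columns, 23 were tied to 1 sample and 1 to its group only.

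A single limma 3.58.1 model (R 4.3.3) of log2(FPKM + 1) over all 8 groups, with its prior trended on level, had 16 residual degrees of freedom and 4.02 from the prior. It gave 17 two-sided comparisons. KO was compared with WT on each day, each day with day 0, day 6 with day 3, day 9 with day 6, and the KO minus WT difference of each later day with that of day 0 (an interaction). Neighbouring comparisons share libraries. Tables and figures used Python 3.11.15, pandas 2.3.3, numpy 2.4.6 and matplotlib 3.10.9. The limma fit was tested on simulated data. Strand of counting is not stated.

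The members, lists and tests were chosen with earlier results of these data known. In each comparison the members named with values came from up to 4 higher and 4 lower with the largest change among those called. Where fewer than 2 were called, they came from the 2 with the lowest adjusted p. Isozyme partners were given beside some of them, and not every member that met this rule is printed. Up to 3 genes were named from each other list. Members named beyond this, and the day 3 replicate 1 pattern with its 6 promoters, were chosen after their values were seen. Same-numbered WT and KO libraries deviated together on day 3 (correlations 0.66, 0.61 and 0.60), so that the numbers paired them there. They did not on day 0 (0.12 and -0.11), day 6 (0.26, -0.26 and -0.47) or day 9 (0.20, 0.18 and -0.46). Pairs of different numbers had correlations of -0.74 to 0.68 on day 6 and -0.63 to 0.67 on day 9. Some libraries of the 2 genotypes thus deviated together there without sharing a number. Alternatives were a pseudocount of 0.1, no filter, a filter of 5 FPKM, TPM, equal sums outside the ribosomal RNA type genes, a replicate block, the compared groups alone, voom on recovered reads, and each library left out. Leaving out replicate 1 of both day 3 groups or replicate 3 of both day 6 groups was added after seeing the data.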

Additional observations from a re-analysis of the deposited data

Results flagged for a closer look

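Glycogenin, Gyg, outside the 36 members, was the 1 gene of the glycolysis, glycogen, pentose phosphate and HIF lists whose change from day 0 differed between genotypes. It was at 1.66, 2.21 and 1.60 FPKM on day 0 and 12.4, 13.4 and 14.5 on day 9 in WT, and at 1.16, 1.33 and 1.55 and 31.6, 40.6 and 22.1 FPKM in KO. The rise to day 9 was larger in KO by 1.39 ± 0.27 (SE) on the log2 scale (limma, adjusted p = 0.0250), where 0.264% of all genes were called. The call was kept without a filter, without KO day 9 replicate 3 (0.00211) and without WT day 9 replicate 3 (0.0435). It was lost in the other alternatives, with an adjusted p of 0.0504 to 1.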

How the results depend on the processing

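Every called gene value printed in the report kept its direction under all alternatives except TPM. There the called declines from day 0 to day 9 of 6 WT members became 0.31 for Ldha, 0.26 for Gpi1, 0.15 for Aldoa, 0.10 for Aldoc, 0.091 for Gapdh and 0.085 for Gys1, and that of Gapdh in KO became 0.20. Among printed values that were not called, Pfkl in WT on day 9 was 0.38 on TPM and Pfkm in KO on day 6 was 0.41 on TPM, 0.20 without replicate 3 of both day 6 groups, and -0.21 to 0.20 with 1 library left out at a time. Tpi1 in WT on day 9 was 0.99 on TPM, 0.10 with equal sums, and -0.14 to 0.17 with 1 library left out at a time. On TPM the members called higher and lower were 10 and 2 in WT from day 0 to day 9, 10 and 2 in KO, 0 and 6 in WT from day 0 to day 6, and 5 lower in KO. From day 3 to day 6 they were 0 and 6 in WT and 1 and 2 in KO, from day 6 to day 9 14 higher in WT and 0 lower in KO, and from day 0 to day 3 1 higher in WT and 0 higher and 3 lower in KO. Equal sums gave 0 higher in WT and 1 higher and 13 lower in KO from day 3 to day 6, 9 higher and 1 lower in KO from day 6 to day 9, and 1 lower in the day 6 interaction (Ldhb). The compared groups alone gave 10 higher in WT and 9 in KO from day 0 to day 9, 0 higher and 8 lower in WT and 1 higher and 4 lower in KO from day 3 to day 6, and 3 higher in WT and 1 in KO from day 6 to day 9. Without a filter 3 were higher in WT from day 0 to day 9, and 0 in WT and 2 in KO from day 3 to day 6. Voom gave 0 higher in WT from day 3 to day 6. Without replicate 3 of both day 6 groups 0 were higher in WT from day 3 to day 6. Without replicate 1 of both day 3 groups 2 were, with 3 lower in KO, and 3 were higher in KO from day 0 to day 3. The cause of these shifts was not tested.

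Leaving out 1 library at a time gave 4 to 8 higher in WT and 2 to 8 higher and 3 to 7 lower in KO from day 0 to day 3. It gave 0 to 2 higher and 10 to 16 lower in WT and 2 to 5 higher and 4 to 11 lower in KO from day 3 to day 6. From day 6 to day 9 the ranges were 0 to 4 lower in WT and 1 to 5 higher in KO, from day 0 to day 9 2 to 4 higher in WT and 2 to 5 in KO, and for KO against WT on day 6 0 to 1 lower.

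With the replicate number as a block 3 members were lower in KO from day 0 to day 3, against 6 without it. No other count over all members tested moved by over 1.5 times. Among the enzymes alone, those called lower than on day 0 in KO went from 13 to 8 on day 6. On day 3 they went from 5 to 2. With the number as a block within each day, where pairing held only on day 3, KO against WT gave -0.23 for P4ha2 on day 3 (adjusted p = 1), 0.80 for Egln3 on day 6 (0.153) and -0.87 for Ndrg1 on day 9 (0.256). Depth limits genes near 1 FPKM such as Pfkfb4, Ankrd37 and Gbe1, most of all in WT day 6 replicate 3.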
